A study of Mus musculus with 12 samples.

Results

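The secondary palate forms the roof of the mouth, and its anterior part becomes the hard palate, in which bone forms beneath an oral and a nasal epithelium. The change of this tissue from embryonic day 14.5 (E14.5) to embryonic day 16.5 (E16.5) in control embryos was described here from 6 of the 12 RNA-seq libraries of the study, the 3 titled as E14.5 controls and the 3 titled as E16.5 controls. The series asked how Fgf8 made in the palate mesenchyme changes the fate of bone-forming cells. Its other 6 libraries came from Shox2Cre;R26RFgf8 embryos of the same ages, in which Cre recombinase made where Shox2 is expressed switches on an Fgf8 transgene at the Rosa26 locus. The controls were anterior palate dissected at either age, with the genotype label wild type, the strain label C57BL/6 and no named allele or treatment. The labels do not say whether a library came from 1 embryo or from a pool, so each p-value below measures the spread between libraries, which may be technical.

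Total counts ran from 85280792 to 125996587 per control library, with 4.51 to 4.97% of them in the 10 genes of highest count. Libraries of 1 age differed from each other by more than the sampling noise of their counts (chi-square per degree of freedom 14.1 to 51.4), so the 3 of an age were kept as separate samples. The first principal component of log2 CPM (counts scaled to a common library size) held 92.5% of the variance and separated the ages, and the next held 2.17% and set replicate 3 of both ages apart from replicates 1 and 2. Markers of palate mesenchyme, bone, oral epithelium, nasal ciliated cells, vessels, nerve and macrophages were all detected. Of the tooth markers, Ambn was detected, Dspp was low (values below) and Amelx is not reported here. The olfactory neuron gene Omp reached at most 1.17 CPM and the fast skeletal muscle light chain Mylpf at most 4.83 CPM. Xist, which is made from the inactive X of females, and Y-linked genes were both present in all 6 libraries. Xist measured 846, 697 and 761 CPM at E14.5 and 338, 477 and 382 CPM at E16.5, and the Y-linked Ddx3y measured 14.2, 35.1 and 34.5 CPM at E14.5 and 85.5, 86.9 and 96.6 CPM at E16.5. The levels of these sex-linked transcripts therefore moved with age. Whether the sex makeup of the libraries differed between the ages, and its part in the results below, was not tested.

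Palatal shelves of the mouse rise above the tongue and fuse in the midline at about the earlier of the ages studied, when the epithelial seam between them is removed. Afterwards the mesenchyme under the fused roof condenses and lays down the bone of the palatine processes, driven by Runx2 and Sp7. The oral surface stratifies into a keratinised epithelium, in which keratins, small proline-rich proteins and lipids build a tough cornified layer. The nasal surface becomes a respiratory epithelium of ciliated and secretory cells.

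Of 17177 genes tested with edgeR, 11713 changed between the ages at an adjusted p under 0.05, which is 68.2% of them. Of these, 6062 genes (35.3% of those tested) were higher at E16.5 and 5651 (32.9%) were lower, but with upper-quartile scaling 5574 were higher and 6413 lower. A change of at least 2-fold was found for 4609 genes (26.8%), 3122 higher (18.2%) and 1487 lower (8.66%), and of at least 8-fold for 1178 higher and 111 lower. The libraries of the ages did not overlap for 37.4% of genes on the higher and 35.5% on the lower side. Over all genes tested the median log2 fold change was 0.00198 and the mean 0.367. With so many genes called, the counts in each gene list below are to be read against these shares. In such bulk samples, fewer cells of a type, less RNA per cell and a larger share of RNA from other tissues cannot be told apart. Whether the dissections took in the same tissues at both ages was not tested.

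**Figure D1:**
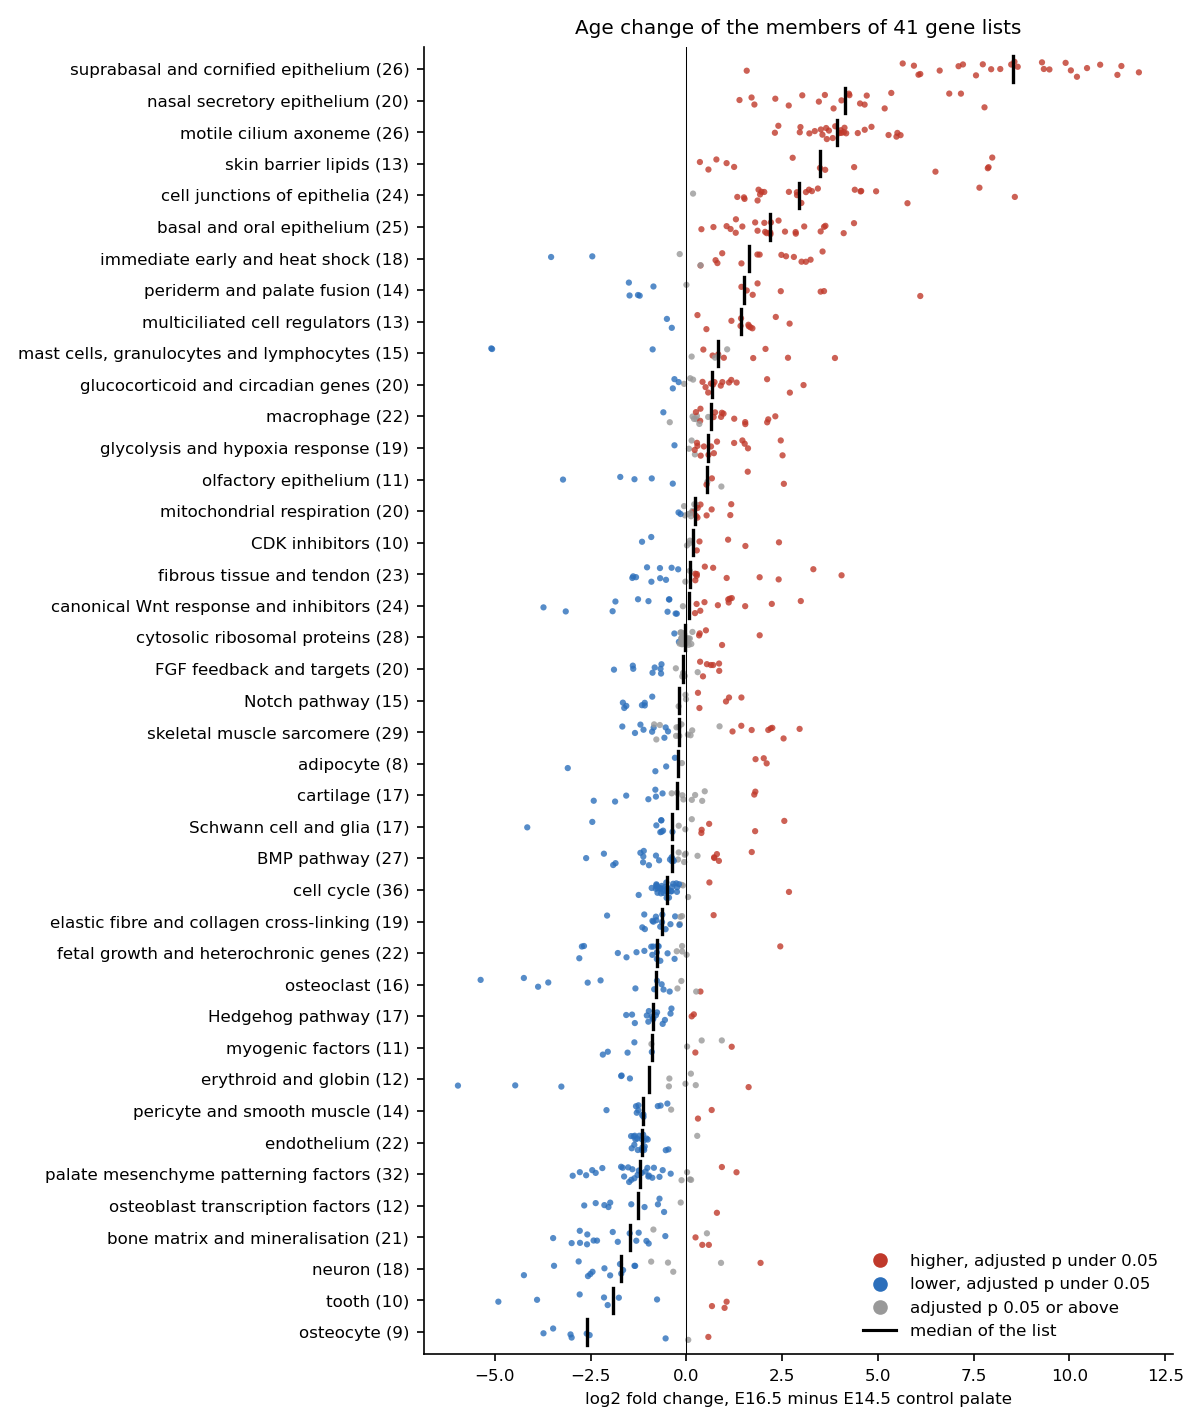
Log2 fold change from E14.5 to E16.5 (x axis) of each tested member of 41 gene lists (y axis, number of members tested in brackets), coloured by the edgeR call, with the list's median as a black bar. Genes at 0 in all 3 libraries of an age are drawn at their lower bound. Cornified, nasal secretory and ciliary genes lie to the right and osteocyte, tooth, neuron and bone matrix genes to the left.

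Genes of basal and oral epithelium rose strongly, although these bulk libraries do not separate the oral from the nasal surface. Among 25 basal and oral epithelial genes tested, 25 were higher at E16.5 and 23 of them by at least 2-fold, with a median log2 fold change of 2.19. Their summed counts went from 0.247% to 1.76% of a library. Krt5, the keratin of basal keratinocytes, measured 216, 416 and 355 CPM at E14.5 and 4172, 3799.6 and 4235 CPM at E16.5, a rise of 12.4-fold (log2 fold change 3.63 ± 0.22 (SE), adjusted p = 4.06e-07). Its partner Krt14 measured 231, 367 and 307 CPM at E14.5 and 1459, 1369 and 1355 CPM at E16.5 (log2 fold change 2.21 ± 0.15 (SE), adjusted p = 8.69e-07). Every E16.5 library lay above every E14.5 library for both keratins, and E14.5 replicate 1 was the lowest.

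Krt15, another basal keratin, rose further (164, 286 and 219 CPM against 3973, 3974 and 3586 CPM). Trp63, the p63 master regulator of stratified epithelium, measured 51.1, 89.5 and 82 CPM at E14.5 and 291, 288 and 334 CPM at E16.5 and rose by 4.1-fold. Epcam, a general epithelial adhesion protein, rose by a smaller 2.44-fold (76.5, 109.9 and 98.1 CPM against 226, 222 and 247 CPM). The groups did not overlap for any of these 3 genes. Col17a1, the hemidesmosomal collagen that ties basal cells to the basement membrane, rose with a log2 fold change of 3.08, the periderm factor Grhl3 with 3.59, and the p63 targets Perp and Sfn with 4.38 and 3.51.

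Suprabasal and cornified layer genes had the highest median of the 43 lists. Of 29 such genes listed, 26 passed the low-count filter, and 26 of these 26 were at least 2-fold higher at E16.5, with a median log2 fold change of 8.61, or 8.52 with genes that had no count at E14.5 set to their lower bound. The list's summed counts went from 349 to 549 CPM at E14.5 to between 25670 and 26390 CPM at E16.5, that is from 0.0457% to 2.59% of a library. Genes of this kind pass the filter through the age at which they are high, so the count itself is a description of the list.

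Krt13, the keratin of non-cornifying oral mucosa, had the largest rise of any gene in CPM. It measured 4.51, 7.94 and 13.2 CPM at E14.5 and 9126, 9161 and 8509 CPM at E16.5, with a log2 fold change 10.04 ± 0.41 (SE), adjusted p = 3.39e-08. Krt4, its usual partner, measured 4.39, 7.97 and 8.29 CPM at E14.5 and 2207, 1715 and 2129 CPM at E16.5. Krt1, the keratin of cornifying layers, measured 5.46, 13.8 and 12.1 CPM at E14.5 and 2576, 2563 and 2684 CPM at E16.5. For each of the 3 keratins the E14.5 libraries were all low and the E16.5 libraries all high, with a wide gap between the groups.

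Krt76, a keratin known from the hard palate, went from 0, 0.0612 and 0.163 CPM to 263, 259 and 244 CPM (log2 fold change 11.81 ± 0.28 (SE), adjusted p = 1.77e-09). Krt6a, found in periderm and stressed or oral epithelium, was already present at E14.5 (49.8, 76 and 67.7 CPM against 4528, 4295 and 4511 CPM), and its near copies in the keratin cluster could share reads with it. Sprr3, a small proline-rich envelope protein, measured 0.26, 0.444 and 0.941 CPM at E14.5 and 908, 958 and 967 CPM at E16.5. Cnfn, the envelope protein cornifelin, measured 0.0401, 0.0918 and 0.616 CPM at E14.5 and 565, 595 and 469 CPM at E16.5. In every case the 3 libraries of an age stayed far closer to one another than to the other age.

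Rptn, the fused S100 protein repetin, measured 0.17, 0.184 and 0.465 CPM at E14.5 and 341, 369 and 384 CPM at E16.5, and Cdsn, the corneodesmosin that glues cornified cells together, measured 0.12, 0.337 and 0.639 CPM at E14.5 and 244, 238 and 275 CPM at E16.5. Klk7, a protease that cleaves corneodesmosin, rose with a log2 fold change of 9.90, as did the related protease Klk14 with 11.70. Lce3c, a late cornified envelope gene, had no count in the E14.5 libraries and 12.8, 12.3 and 8.24 CPM at E16.5, at least 1173-fold higher than the 3 counts over the group that a count of 0 allows. Sprr1b had a single count at E14.5 and 11.8, 10.9 and 12.3 CPM at E16.5. Other genes of this layer from outside the list were among the 15 largest rises: Crnn (cornulin, 11.62), the serine protease inhibitors Serpinb3a (10.79) and Serpinb12 (10.50), the cystatin Csta1 (10.48), Ly6g6c (9.53) and the secreted antiprotease Slpi (9.66), all as log2 fold changes.

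**Figure D2:**
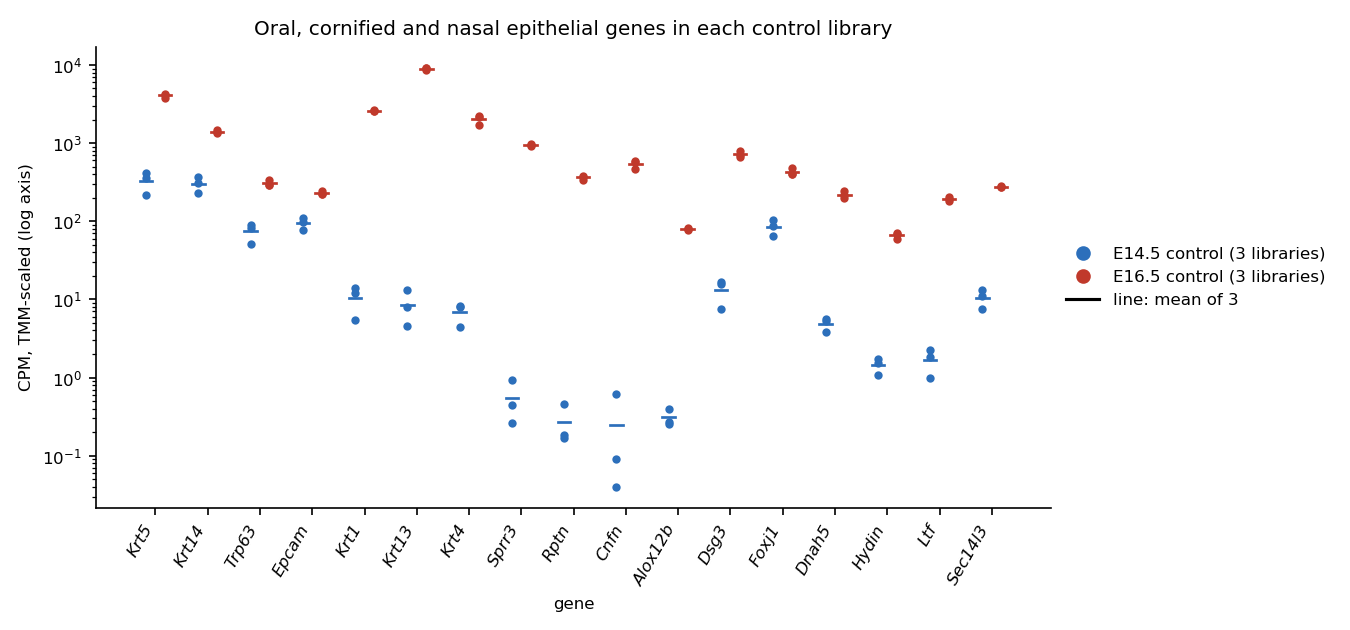
CPM of 17 epithelial genes in each control library (log y axis), E14.5 in blue and E16.5 in red, with the mean of 3 libraries as a line. The ages do not overlap for any of the 17 genes, and the gap is widest for the cornified genes Sprr3, Rptn and Cnfn.

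The promoters of the cornified genes are shown because these genes moved together and many sit in clusters of related genes. The RefSeq promoter table (GRCm38.p6) held 17 of the 26 cornified genes tested, and the 250 bases before their starts were searched on both strands. The AP-1 motif was searched as TGANTCA, a looser form of the site TGA(G/C)TCA that Fos and Jun proteins bind. It was found in 7 of the 17 (41.2%), in 1 of 16 bone matrix promoters (6.25%) and in 7.82% of 27025 genes. The shares of the stricter form were not counted. The TATA box TATAAA was found in 9 of the 17 (52.9%), in 5 of 16 bone matrix promoters (31.2%) and in 14.3% of all genes. Both motifs were chosen after a wider search of these windows, so the shares are a description. Of the matched members with both motifs, the 4 highest at E16.5 follow, with AP-1 and TATA letters in capitals: Krtdap at chr7:30787655-30787904 on the plus strand, Sprr1a at chr3:92485882-92486131 on the minus strand, Rptn at chr3:93393449-93393698 on the plus strand and Lor at chr3:92083143-92083392 on the minus strand. The last capital run in each is the TATA box, which begins 30, 43, 31 and 27 bases before the start. The AP-1 stretch marked in Rptn is TGATTCA, which is outside the stricter form.
Krtdap: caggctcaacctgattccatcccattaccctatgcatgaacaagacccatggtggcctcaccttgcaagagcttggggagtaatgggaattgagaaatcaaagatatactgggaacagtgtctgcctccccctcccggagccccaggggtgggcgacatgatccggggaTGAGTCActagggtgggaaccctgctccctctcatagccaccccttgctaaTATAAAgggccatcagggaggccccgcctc
Sprr1a: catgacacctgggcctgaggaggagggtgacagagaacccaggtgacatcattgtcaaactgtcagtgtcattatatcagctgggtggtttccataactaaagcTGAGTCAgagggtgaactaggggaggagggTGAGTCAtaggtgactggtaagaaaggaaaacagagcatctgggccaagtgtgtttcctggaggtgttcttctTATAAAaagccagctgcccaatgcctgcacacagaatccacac
Rptn: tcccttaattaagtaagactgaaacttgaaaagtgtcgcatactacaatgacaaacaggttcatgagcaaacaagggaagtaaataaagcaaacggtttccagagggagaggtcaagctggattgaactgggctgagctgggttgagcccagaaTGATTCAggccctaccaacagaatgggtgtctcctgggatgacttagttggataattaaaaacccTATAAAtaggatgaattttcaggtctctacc
Lor: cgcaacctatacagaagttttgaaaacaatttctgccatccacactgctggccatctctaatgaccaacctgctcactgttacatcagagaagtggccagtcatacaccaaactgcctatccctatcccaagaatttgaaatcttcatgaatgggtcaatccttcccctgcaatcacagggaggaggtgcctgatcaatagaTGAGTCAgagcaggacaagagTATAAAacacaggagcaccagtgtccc

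Genes that make the lipids of the skin barrier rose as well, 13 of 13 tested, 10 of them by at least 2-fold (median 3.49). Alox12b, the lipoxygenase that prepares ceramides for the envelope, measured 0.271, 0.398 and 0.256 CPM at E14.5 and 80.7, 83.1 and 78.1 CPM at E16.5 (log2 fold change 7.98 ± 0.13 (SE), adjusted p = 3.96e-10). Abca12, which loads lipid into lamellar granules, measured 0.471, 0.398 and 0.476 CPM at E14.5 and 38.6, 39.6 and 42.8 CPM at E16.5. For both, all 3 E16.5 libraries lay far above all 3 E14.5 libraries. Cyp4f39 and Pnpla1, which act on the acylceramide pathway, rose with log2 fold changes of 7.87 and 7.89, and the ceramide synthase Cers3 and the sphingolipid enzyme Sptlc3 with 3.62 and 4.38.

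Cell junction genes followed, 23 of 24 tested being at least 2-fold higher (median 2.94). The desmosomal cadherins Dsg1a (1.4, 4.64 and 5.37 CPM against 702, 719 and 869 CPM) and Dsg3 (7.55, 16.6 and 15.6 CPM against 663, 711 and 798 CPM) were low at E14.5 and high at E16.5. Dsc1 rose with a log2 fold change of 8.57 and Dsc2 with 4.95. The desmosomal plaque proteins desmoplakin (Dsp, 3.43), plakophilin 1 (Pkp1, 4.56) and periplakin (Ppl, 4.55) rose together with them. Tjp1, the ZO-1 scaffold found in tight junctions of many cell types, did not pass the test (log2 fold change 0.17, adjusted p = 0.129).

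Genes of the periderm and of palate fusion moved in both directions. Of 14 tested, 8 were higher and 5 lower (median 1.51). The risers were epithelial genes that the other lists also hold in part, such as Krt6a, Grhl3, Sfn, the Notch ligand Jag2 (1.44) and the kinase Ripk4 (2.46). The 5 that fell lie outside the rule for named genes and were picked after their values were seen. Tgfb3, the growth factor that drives removal of the midline seam, measured 207, 182 and 199.8 CPM at E14.5 and 82, 79.1 and 84 CPM at E16.5 (log2 fold change -1.26 ± 0.06 (SE), adjusted p = 1.52e-07). Snai1 (-1.22) and Snai2 (-0.86), zinc finger repressors of E-cadherin, and the matrix proteases Mmp13 (-1.50) and Mmp25 (-1.48) fell too. Arhgap29, a GTPase-activating protein, did not pass the test (log2 fold change 0.00, adjusted p = 0.99).

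Genes of motile cilia, which the nasal epithelium carries, rose as a block. Of 26 axoneme genes tested, 26 were at least 2-fold higher at E16.5, with log2 fold changes from 2.31 to 5.59 and a median of 3.94. Dnah5, an outer dynein arm heavy chain, measured 3.78, 5.58 and 5.32 CPM at E14.5 and 199.9, 217 and 241 CPM at E16.5 (log2 fold change 5.48 ± 0.15 (SE), adjusted p = 3.72e-09). Hydin, a protein of the central pair of microtubules, measured 1.07, 1.55 and 1.74 CPM at E14.5 and 59.2, 68.2 and 71.3 CPM at E16.5, and Dnah9, a dynein of the distal axoneme, measured 1.46, 1.79 and 1.85 CPM at E14.5 and 75.3, 86 and 84.7 CPM at E16.5. All E14.5 libraries were low and all E16.5 libraries high for each of the 3, with no overlap.

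The factors that commit a cell to many cilia were already present at E14.5 and rose less. Of 13 tested, 11 rose and 2 fell (median 1.43). Foxj1, the master regulator of motile cilia, measured 64.4, 104 and 85.9 CPM at E14.5 and 402, 477 and 406 CPM at E16.5 (log2 fold change 2.33 ± 0.16 (SE), adjusted p = 1.06e-06). The geminin relative Gmnc (1.72), Myb (1.63), Trp73 (1.62) and the cyclin Ccno (1.67) rose by similar log2 amounts, and Cdc20b, which hosts the multiciliation microRNAs, by 2.69. The 2 that fell, picked after their values were seen, were E2f4 (-0.38) and E2f5 (-0.51), which also serve the cell cycle.

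Secretory genes of the airway epithelium rose in 20 of 20 tested (22 listed), all by at least 2-fold (median 4.14). Members such as Scgb1a1 pass the filter through the age at which they are high, so this count is a description of the list. Ltf, the antimicrobial lactoferrin, measured 2.26, 0.995 and 1.82 CPM at E14.5 and 182, 195 and 202 CPM at E16.5 (log2 fold change 6.86 ± 0.23 (SE), adjusted p = 1.15e-08). Sec14l3, a lipid transfer protein of ciliated airway cells, measured 7.61, 13.1 and 10.9 CPM at E14.5 and 271, 279.6 and 277 CPM at E16.5. Muc5b, a gel-forming mucin, measured 0.341, 0.23 and 0.465 CPM at E14.5 and 16.7, 10 and 14.3 CPM at E16.5. Scgb1a1, the club cell secretoglobin, had no count at E14.5 and 1.73, 1.34 and 1.02 CPM at E16.5, at least 144-fold higher than its floor. Lyz2, a lysozyme that macrophages also make, rose with a log2 fold change of 2.32.

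Olfactory genes gave no common direction, with 4 of 11 tested higher (36.4%, against 35.3% of all genes) and 5 lower (45.5%, against 32.9%). Omp, of mature olfactory neurons, rose from 0.381, 0.23 and 0.325 CPM to 0.84, 1.17 and 0.812 CPM, and Cyp2g1, of sustentacular cells, with a log2 fold change of 2.54. Both remained low. Ebf1 and Ebf2, which are also factors of mesenchyme, fell with -1.73 and -3.22.

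Bone genes fell over the interval. Of 12 osteoblast transcription factors tested, 10 were lower at E16.5, 7 of them by at least 2-fold, and 1 was higher (median -1.27), against 8.66% of all genes at least 2-fold lower. Runx2, which commits cells to the osteoblast line, measured 295, 254 and 322 CPM at E14.5 and 59.2, 66 and 72.3 CPM at E16.5, 4.41 times as much at the earlier age (log2 fold change -2.14 ± 0.10 (SE), adjusted p = 1.03e-07). Sp7 (osterix), which acts after it, measured 248, 211 and 334 CPM at E14.5 and 41.5, 43.6 and 39.8 CPM at E16.5, 6.35 times as much (log2 fold change -2.67 ± 0.15 (SE), adjusted p = 3.03e-07). All 3 E16.5 libraries lay below all 3 E14.5 libraries for both genes.

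Dlx5 and Dlx6, homeobox genes that act on Sp7, fell with log2 fold changes of -1.99 and -2.04, and Alx4, a homeobox gene of skull and face, with -1.44. The member that rose, picked after its values were seen, was Msx2 (6.54, 7.78 and 6.55 CPM against 11.2, 12.2 and 13 CPM, log2 fold change 0.80). Atf4, which osteoblasts share with all stressed cells, did not pass the test (198, 196 and 175 CPM against 186, 180.0 and 148 CPM, adjusted p = 0.183).

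Bone matrix and mineralisation genes fell in 16 of 21 tested, 14 by at least 2-fold, and 3 rose (median -1.48). Their summed counts fell from 2.15% to 0.9% of a library. Col1a1, the main chain of type I collagen, measured 6277, 5101 and 7127 CPM at E14.5 and 2245, 2392 and 2839.9 CPM at E16.5 (log2 fold change -1.31 ± 0.13 (SE), adjusted p = 1.56e-05), and Col1a2, its partner chain, 6542, 5643 and 6597 CPM against 2465, 2618 and 2838 CPM. Ibsp, the bone sialoprotein of mineralising matrix, measured 1971, 1594 and 1676 CPM at E14.5 and 276, 395 and 307 CPM at E16.5 and fell by more than these collagens (log2 fold change -2.42 ± 0.14 (SE), adjusted p = 3.20e-07). Spp1 (osteopontin) measured 86.3, 202 and 128 CPM at E14.5 and 19.3, 22.6 and 19 CPM at E16.5, with E14.5 replicate 2 the highest.

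In the same list, Enpp1, which makes pyrophosphate, measured 151, 149 and 181 CPM at E14.5 and 23.4, 22.5 and 23.9 CPM at E16.5 (log2 fold change -2.78 ± 0.09 (SE), adjusted p = 6.86e-09). Phospho1, the phosphatase of matrix vesicles, measured 25.8, 18.1 and 20 CPM at E14.5 and 3.23, 4.09 and 3.3 CPM at E16.5, and Smpd3, a sphingomyelinase needed for mineralisation, 376, 298 and 357 CPM against 53.3, 57.7 and 59.5 CPM. Serpinh1, the collagen chaperone, fell by 2.06-fold. The 3 members that rose, picked after their values were seen, were the pyrophosphate channel Ank (0.59), the phosphate importer Slc20a2 (0.24) and osteomodulin, Omd (0.42). Osteocalcin was low in these libraries. Bglap measured 0.361, 0.704 and 0.499 CPM at E14.5 and 0.781, 0.77 and 0.735 CPM at E16.5, higher at E16.5 without overlap. Its near copy Bglap2 lay at 0.197 to 1.04 CPM and overlapped between the ages. Neither passed the test with all libraries; for Bglap its adjusted p was 0.0486 without E14.5 replicate 2, and for Bglap2 its adjusted p was 0.0183 without E14.5 replicate 1.

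Osteocyte genes had the lowest median of the 43 lists (-2.60), with 7 of 9 tested lower. Dmp1, a matrix protein of osteocytes, measured 35.9, 49.6 and 47.2 CPM at E14.5 and 3.61, 3.7 and 4.58 CPM at E16.5 (log2 fold change -3.48 ± 0.15 (SE), adjusted p = 4.64e-08). Phex, the protease of phosphate balance, measured 63.1, 45.6 and 56.3 CPM at E14.5 and 5.29, 7.49 and 7.47 CPM at E16.5, and Dkk1, a Wnt inhibitor that osteocytes and mesenchyme make, 48.8, 48.6 and 45.6 CPM against 3.19, 3.48 and 4.08 CPM. The E14.5 libraries stood well above the E16.5 libraries for each of these, with no overlap. Sost (sclerostin, 3.35, 1.84 and 2.42 CPM against 0.497, 0.379 and 0.373 CPM), Mepe (3.26, 1.5 and 2.59 CPM against 0.272, 0.301 and 0.34 CPM) and Fgf23 (-2.53) fell from low levels. Pdpn, which is also made in lymphatic and epithelial cells, rose (0.57; picked after its values were seen).

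Osteoclast genes fell in 12 of 16 tested and rose in 1 (median -0.80). Mmp9, the gelatinase of osteoclasts, measured 106, 111 and 113 CPM at E14.5 and 10.7, 6.91 and 9.48 CPM at E16.5 (log2 fold change -3.61 ± 0.14 (SE), adjusted p = 2.66e-08). Atp6v0d2, a proton pump subunit, measured 6.16, 7.94 and 7.25 CPM at E14.5 and 0.379, 0.58 and 0.494 CPM at E16.5, and Ocstamp and Dcstamp, both needed for fusion of precursors, fell with -4.24 and -5.37 from low levels. Tnfsf11 (RANKL), the signal that makes osteoclasts, fell with -2.24, while its decoy receptor Tnfrsf11b did not pass the test (-0.13, adjusted p = 0.275). Ctsk, a protease that fibroblasts make too, measured 73.5, 95.2 and 74.8 CPM at E14.5 and 72.6, 73.2 and 61.6 CPM at E16.5 and did not pass the test (adjusted p = 0.0831); its adjusted p was 0.0415 without E14.5 replicate 1. The member that rose was Csf1r (28.2, 27.9 and 29.4 CPM against 38.1, 35.7 and 36.4 CPM), a receptor shared with macrophages.

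**Figure D3:**
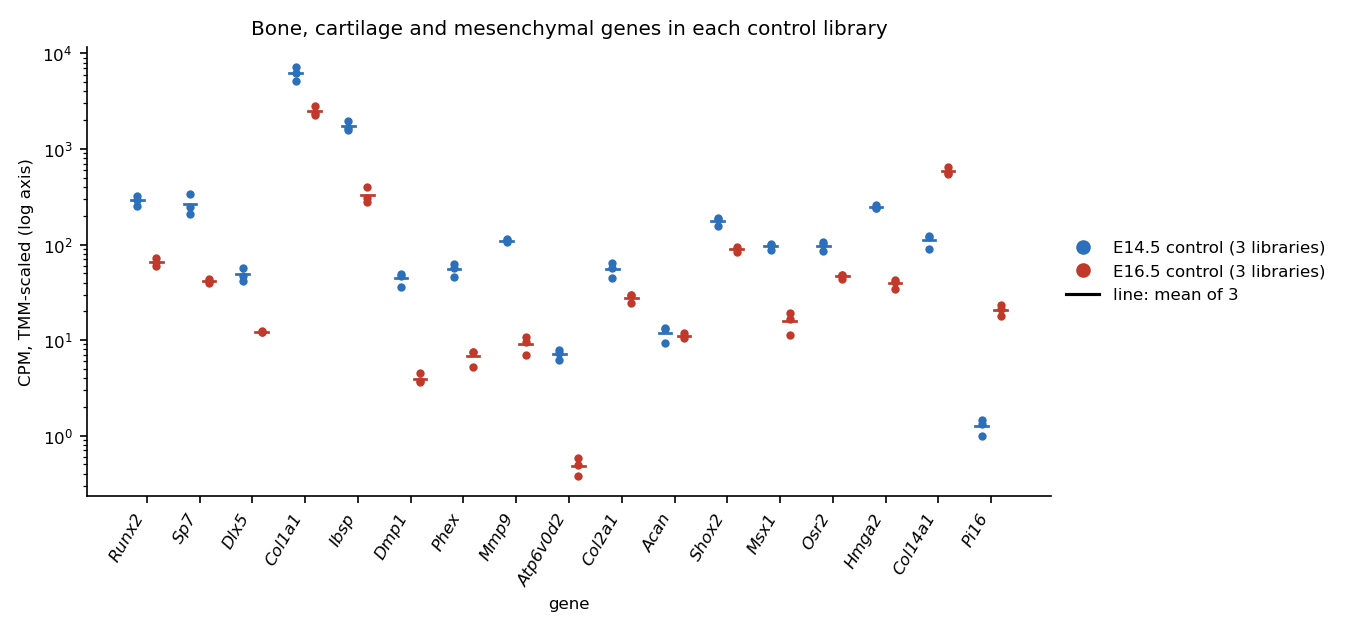
CPM of 17 genes of bone, cartilage and palate mesenchyme in each control library (log y axis), E14.5 in blue and E16.5 in red, with the mean of 3 libraries as a line. Runx2 to Atp6v0d2 and the patterning genes lie lower at E16.5, Acan overlaps between the ages, and Col14a1 and Pi16 lie higher.

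Cartilage genes were mixed. Of 17 tested, 7 fell, 2 rose and 8 did not pass the test (median -0.24). Col2a1, the cartilage collagen, measured 56.8, 44.3 and 64.4 CPM at E14.5 and 24.3, 29.5 and 29.3 CPM at E16.5 (log2 fold change -0.99 ± 0.13 (SE), adjusted p = 1.17e-04), and Ihh, the hedgehog ligand of prehypertrophic chondrocytes, 10.6, 6.47 and 8.84 CPM against 3.03, 2.59 and 3.09 CPM. Sox5 (3.24, 2.89 and 4.18 CPM against 10.7, 11.3 and 13.1 CPM, log2 fold change 1.77) and the matrix protein Chad (1.80) rose. Acan, the main proteoglycan, measured 13.2, 9.4 and 13.2 CPM at E14.5 and 10.4, 11.1 and 11.8 CPM at E16.5, and the groups overlapped (adjusted p = 0.515); its adjusted p was 0.0477 without E14.5 replicate 2.

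Most patterning factors of the palate mesenchyme fell. Of 32 tested, 26 were lower at E16.5, 19 of them by at least 2-fold, and 2 were higher (median -1.21). Shox2, the homeobox gene of the anterior palate whose Cre line the series used, measured 156, 183 and 189 CPM at E14.5 and 88.7, 84.5 and 95.3 CPM at E16.5 (log2 fold change -0.98 ± 0.08 (SE), adjusted p = 4.74e-06). Msx1, a cleft gene of the anterior mesenchyme, measured 88.1, 98.6 and 102 CPM at E14.5 and 19, 11.4 and 16.7 CPM at E16.5 (log2 fold change -2.62 ± 0.16 (SE), adjusted p = 5.48e-07). Osr2, which acts in shelf growth on the oral side, measured 85.8, 107 and 100.3 CPM at E14.5 and 47.6, 44 and 48.1 CPM at E16.5. Msx1 fell by 6.13-fold, against 1.97-fold for Shox2 and 2.1-fold for Osr2, and the groups did not overlap for any of the 3.

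Lhx6, a LIM homeobox gene of oral mesenchyme, measured 216, 190.1 and 200.4 CPM at E14.5 and 40.5, 32.5 and 37.4 CPM at E16.5, and Dlx1, of jaw patterning, 39, 36.4 and 37 CPM against 6.12, 2.78 and 5.47 CPM. The repressor Hic1 (-2.78), the jaw factor Hand2 (-2.19), and the X-linked cleft gene Tbx22 (-1.49) also fell. The 2 that rose were picked after their values were seen. Prrx1, a homeobox gene of limb and face mesenchyme, measured 227, 199 and 261 CPM at E14.5 and 410.4, 404 and 492 CPM at E16.5, and Tbx3 measured 19, 12.7 and 17.8 CPM at E14.5 and 35.8, 40.1 and 46.4 CPM at E16.5. Pax9 (74.1, 87.3 and 95.1 CPM against 71.1, 77.6 and 86.2 CPM) and Pax3 (16.5, 23.1 and 21.7 CPM against 18.1, 23.3 and 20.6 CPM) overlapped between the ages and did not pass the test, like Dlx2 (0.09).

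Genes of fibrous connective tissue split evenly, with 11 of 23 tested higher and 10 lower (median 0.09). Col14a1, a collagen of dense connective tissue that binds to fibrils, measured 90.8, 121 and 119 CPM at E14.5 and 542, 565 and 652 CPM at E16.5 (log2 fold change 2.41 ± 0.12 (SE), adjusted p = 1.36e-07). Pi16, a marker of adventitial fibroblasts, measured 1.45, 0.995 and 1.34 CPM at E14.5 and 20.9, 23.5 and 17.8 CPM at E16.5, and Dpt (dermatopontin), made by the same cells, 1.5, 1.83 and 1.44 CPM against 17.7, 15.6 and 14.5 CPM. The E16.5 libraries lay above the E14.5 libraries for each of these 3 genes. The growth factor receptor Pdgfra fell by 2.62-fold (522, 431 and 496 CPM against 181, 179 and 192 CPM) and the leucine-rich proteoglycan Kera with -1.41. Thbs2 and Thbs4 overlapped between the ages (log2 fold changes -0.03 and 0.09).

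Elastic fibre and collagen cross-linking genes fell in 15 of 19 tested, 4 by at least 2-fold (median -0.64). Fbn1 (fibrillin 1), the scaffold of elastic microfibrils, measured 370.2, 338 and 387 CPM at E14.5 and 154, 162 and 178 CPM at E16.5, and Efemp2 (fibulin 4) fell with -1.10. Loxl4, a lysyl oxidase, fell further (51.3, 37.8 and 42.2 CPM against 9.31, 11.8 and 10.2 CPM). The 1 riser, picked after its values were seen, was Ltbp4, which holds TGF-beta in the matrix (243, 247 and 275 CPM against 389.7, 425 and 437 CPM).

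Genes of cell division fell together by a small amount. Of 36 cell cycle genes tested, 31 were lower at E16.5, only 1 of them by at least 2-fold, and 2 were higher (median -0.51). The replicative helicase genes Mcm2, Mcm3 and Mcm6 fell by 1.74, 1.87 and 1.72-fold, with Mcm2 at 184, 180.0 and 191 CPM against 109, 99.7 and 110.2 CPM. Ccnd1 (cyclin D1) was the member that fell most (211, 172 and 199 CPM against 80.2, 77.4 and 87.8 CPM). Cdk6, the kinase that D cyclins activate, went the other way (1.76, 1.49 and 1.34 CPM against 9.27, 8.23 and 11.9 CPM, log2 fold change 2.68 ± 0.18 (SE), adjusted p = 8.36e-07), as did its relative Cdk4 (0.60; picked after its values were seen).

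In a list of 7 inhibitors of these kinases and 3 retinoblastoma family genes, 5 of 10 tested were higher and 2 lower, the 5 including all 3 of that family. Cdkn1a (p21), which p53 and differentiation induce, measured 59, 72 and 62.2 CPM at E14.5 and 337, 374 and 321 CPM at E16.5 (log2 fold change 2.42 ± 0.09 (SE), adjusted p = 2.38e-08). The tumour suppressor Rb1, which D-type kinases phosphorylate, measured 21.5, 17.5 and 20.3 CPM at E14.5 and 48.7, 59.5 and 64.1 CPM at E16.5, and Cdkn2b (p15) rose by 2.12-fold. Cdkn1c (p57), an imprinted inhibitor with high levels in embryonic mesenchyme, fell from 1677, 1346 and 1614 CPM to 750, 828 and 877 CPM. Cdkn1b (p27) overlapped between the ages (adjusted p = 0.887).

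Genes of fetal growth fell in 17 of 22 tested (7 by at least 2-fold, median -0.77). Hmga2, a chromatin protein of growing embryonic tissue, measured 244, 244 and 262 CPM at E14.5 and 40.4, 34.6 and 42.5 CPM at E16.5 (log2 fold change -2.67 ± 0.09 (SE), adjusted p = 8.30e-09). The imprinted growth factor Igf2 measured 4319.6, 3383 and 4421 CPM at E14.5 and 1733, 1835 and 2100.3 CPM at E16.5, and the imprinted adaptor Grb10 2069, 1852 and 2012 CPM against 651, 657 and 699 CPM. Mycn (-2.80) and Lin28b (-2.73), both linked to the timing of development, fell as well. Lin28a rose, but from 0.0232 to 0.1 CPM to no more than 0.379 CPM.

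Cytosolic ribosomal protein genes changed little: 21 of 28 tested did not pass the test, 5 rose and 2 fell (median -0.03). Rpl4 measured 2024, 1988 and 1878 CPM at E14.5 and 1829.7, 1859 and 1689.9 CPM at E16.5 (adjusted p = 0.109). The extremes were Rps14 (0.93) and Rpl3 (1.91), whose many processed copies in the genome can take their reads.

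Vessel genes fell uniformly. Of 22 endothelial genes tested, 21 were lower at E16.5, 19 of them by at least 2-fold, and 0 were higher (median -1.16). Cdh5 (VE-cadherin) measured 165, 157 and 188 CPM at E14.5 and 61.2, 57.6 and 68.5 CPM at E16.5 (log2 fold change -1.44 ± 0.09 (SE), adjusted p = 4.82e-07). Kdr, the main VEGF receptor, measured 93.6, 89.3 and 96.3 CPM at E14.5 and 34.9, 36.4 and 39.7 CPM at E16.5, and Pecam1, the CD31 adhesion protein, 99.9, 94.2 and 93.4 CPM against 49.7, 44.9 and 45 CPM. The 3 libraries of an age lay close together, and the ages did not overlap. Flt1 (-1.43), the lymphatic receptor Flt4 (-1.35) and the tip-cell peptide Apln (-1.38) fell to the same degree. Prox1, a lymphatic factor that other cells share, did not pass the test (6.3, 9 and 7.92 CPM against 9.31, 9.68 and 9.3 CPM, adjusted p = 0.0829); its adjusted p was 0.0203 without E14.5 replicate 2.

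Pericyte and smooth muscle genes fell in 11 of 14 tested and rose in 2 (median -1.12). Pdgfrb, the pericyte receptor, measured 247, 245 and 260.1 CPM at E14.5 and 98.3, 97.5 and 107 CPM at E16.5. Acta2 (-1.25), Tagln (-1.30), Cnn1 (-2.09) and the pericyte marker Rgs5 (-1.15) fell with it. The risers, picked after their values were seen, were the smooth muscle myosin Myh11 (13.2, 12.4 and 13 CPM against 20.5, 19.4 and 21.2 CPM) and Notch3 (0.30).

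Among erythroid genes the embryonic globins fell. Hbb-y, an embryonic beta-type globin of yolk sac red cells, measured 221, 163 and 173 CPM at E14.5 and 3.34, 2.98 and 2.61 CPM at E16.5 (log2 fold change -5.96 ± 0.15 (SE), adjusted p = 2.44e-09), which was the largest fall by the rule used here. Hba-x, the embryonic alpha-type globin, measured 14.5, 12.7 and 16.9 CPM at E14.5 and 0.934, 0.747 and 0.318 CPM at E16.5, and Hbb-bh1 fell from a low level with -3.26. Slc4a1, the red cell anion exchanger, fell with -1.70. The transferrin receptor Tfrc, which dividing and epithelial cells also use, was the only one of 12 tested to rise (1.62), against 6 that fell and 5 that did not pass the test.

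Most macrophage genes moved up from low levels. Of 22 macrophage genes tested, 14 were higher (63.6%, against 35.3% of all genes), 1 was lower and 7 did not pass the test (median 0.64). Adgre1 (F4/80) measured 6.54, 4.76 and 4.98 CPM at E14.5 and 11.9, 13.1 and 13.7 CPM at E16.5 (log2 fold change 1.25 ± 0.14 (SE), adjusted p = 2.68e-05). The integrin Itgam measured 3.73, 4.04 and 4 CPM at E14.5 and 16.1, 17.8 and 17.8 CPM at E16.5, and the class II molecule H2-Ab1 2.16, 3.06 and 2.21 CPM against 10, 11.9 and 10.3 CPM. Cd163, a scavenger receptor of resident macrophages, rose with 1.54 and C1qa, a complement subunit, with 0.93. Cd68, a lysosomal protein of macrophages and osteoclasts, was the member that fell (8.03, 9.98 and 9.07 CPM against 6.38, 5.54 and 5.95 CPM; picked after its values were seen).

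Among mast cell and granulocyte genes both directions occurred. Of the mast cell proteases, Tpsb2 (tryptase) measured 0.13, 0.383 and 0.314 CPM at E14.5 and 3.19, 5.03 and 4.16 CPM at E16.5, and the chymase Cma1 1.94, 3.82 and 2.52 CPM against 9.84, 15.1 and 9.94 CPM. Mpo, the myeloperoxidase of immature granulocytes, measured 3.34, 4.8 and 5.28 CPM at E14.5 and 0.0473, 0.279 and 0.0658 CPM at E16.5 (log2 fold change -5.07 ± 0.46 (SE), adjusted p = 7.74e-06), and Elane, its companion elastase, fell from a low level with -5.09. Other granulocyte genes rose, Camp with 1.74 and S100a9 with 0.98 (the latter picked after its values were seen). For S100a9 its adjusted p was 0.0626 to 0.234 when E14.5 replicate 2, E14.5 replicate 3, E16.5 replicate 1 or E16.5 replicate 3 was left out, and it did not pass with DESeq2 (0.0911) or limma-voom (0.0893). The list as a whole had 8 of 15 tested higher and 3 lower, and 7 called with replicates 1 and 2 alone at each age.

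Nerve genes fell. Of 18 neuronal genes tested, 13 were lower, each by at least 2-fold, and 1 was higher (median -1.72). Tubb3, the neuronal tubulin, measured 36.3, 24.1 and 29.5 CPM at E14.5 and 13.3, 11.8 and 10.4 CPM at E16.5 (log2 fold change -1.34 ± 0.15 (SE), adjusted p = 3.58e-05). Prph, an intermediate filament of peripheral neurons, measured 21.3, 10.5 and 14.1 CPM at E14.5 and 0.863, 0.524 and 1.03 CPM at E16.5, and the neurofilament Nefm 11, 4.1 and 7.89 CPM against 1.51, 1 and 1.34 CPM. E14.5 replicate 1 was the highest and E14.5 replicate 2 the lowest of its age for each of the 3. The RNA-binding proteins Elavl3 (-2.81) and Elavl4 (-2.45), the tubulin-binding Stmn3 (-3.46) and the growth cone protein Gap43 (-1.36) fell too, although Elavl3 had an adjusted p of 0.0512 with replicates 1 and 2 alone at both ages. Isl1, a homeobox gene that epithelium and mesenchyme also use, rose (4.78, 6.65 and 5.34 CPM against 20.9, 24.4 and 19.1 CPM; picked after its values were seen).

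In the Schwann cell and glia list 9 of 17 tested fell and 5 rose (median -0.36), and 9 were called in all without E16.5 replicate 1. Gldn (gliomedin), which organises nodes of Ranvier, measured 3.23, 5.76 and 5.73 CPM at E14.5 and 0.213, 0.145 and 0.461 CPM at E16.5, and Egr2, the myelination factor, 4.13, 3.93 and 5.12 CPM against 0.71, 0.982 and 0.702 CPM. Sox10, the factor of all Schwann cells, fell by less (15.2, 10.3 and 12.5 CPM against 8.95, 7.34 and 7.97 CPM). Erbb3, the neuregulin receptor that epithelia also express, rose (18.3, 24.4 and 25.8 CPM against 127, 132 and 143 CPM), and so did the myelin gene Mbp (13, 15.1 and 15.5 CPM against 51.3, 48.7 and 51.2 CPM), which has other transcripts in immune cells.

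Muscle genes were low and mixed. Of 29 sarcomere genes tested, 8 rose (27.6%, against 35.3% of all genes) and 9 fell (31%, against 32.9%). Among the risers were the slow and cardiac myosin Myh7 (0.2, 0.344 and 0.406 CPM against 1.31, 1.31 and 1.76 CPM), Myh6 (2.24), the cardiac troponin Tnnt2 (2.14), the oxygen carrier Mb (2.96), muscle creatine kinase (Ckm, 2.54) and the fast troponin Tnni2 (1.43), whereas the slow troponin Tnnt1 fell (-1.20; the last 2 were picked after their values were seen). The other members that fell were picked after their values were seen. They were Casq1 (-1.67), Pygm (-1.34), Des (-1.12), Ttn (-0.89), Ryr1 (-0.85), Tnni1 (-0.57), Neb (-0.54) and Tpm2 (-0.48). Myh3, the embryonic myosin, overlapped between the ages (0.882, 5.02 and 4.33 CPM against 1.67, 4.55 and 2.35 CPM). Of 11 myogenic factors, 5 fell and 2 rose, and 4 were called in all without E16.5 replicate 3. Mef2c, which is also expressed outside muscle, measured 209, 175 and 206 CPM at E14.5 and 42.3, 45.7 and 54 CPM at E16.5, and the satellite cell cadherin Cdh15 fell with -2.18.

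Tooth genes such as Ambn were detected in both ages, and 7 of 10 tested fell while 3 rose (median -1.91). Ambn, the enamel protein ameloblastin, measured 30.8, 35.6 and 29.8 CPM at E14.5 and 2.67, 1.61 and 2.18 CPM at E16.5 (log2 fold change -3.90 ± 0.17 (SE), adjusted p = 4.86e-08). Dspp, of dentin, fell from 0.341, 0.298 and 0.499 CPM to at most 0.0219 CPM. Fgf4 and Fgf20, of the enamel knot, fell with -2.79 and -2.05. Among the risers, picked after their values were seen, Sp6 (0.67) is also a factor of oral epithelium, and Klk4 (0.24, 0.23 and 0.279 CPM against 0.449, 0.602 and 0.439 CPM) passed the test with all libraries, although its adjusted p was 0.0579 to 0.083 when E14.5 replicate 1, E14.5 replicate 2 or E16.5 replicate 2 was left out.

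Adipocyte genes gave 3 higher (37.5%, against 35.3% of all genes) and 4 lower (50%, against 32.9%) of 8 tested (14 listed). Cebpa (21.2, 23.3 and 23.5 CPM against 72.9, 80.3 and 84.1 CPM), which keratinocytes also use, and the fatty acid transporter Cd36 (2.10) rose, whereas Car3 (71.3, 69.9 and 67.9 CPM against 6.48, 10.3 and 7.66 CPM) and Fabp4 (-0.81) fell and Pparg overlapped (-0.12). Of melanocyte genes only 3 passed the low-count filter, of which Pmel rose with 1.03 and Dct fell with -2.34. For Dct its adjusted p was 0.0544 to 0.0798 when E14.5 replicate 2, E14.5 replicate 3 or E16.5 replicate 1 was left out.

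The signalling lists hold ligands, receptors and transducers as well as response genes, so their counts do not measure pathway response alone. Hedgehog genes were lower in 15 of 17 tested and higher in 2 (median -0.87). Gli1, the readout of the pathway, measured 177, 161 and 161 CPM at E14.5 and 68.8, 58.8 and 59.5 CPM at E16.5 (log2 fold change -1.42 ± 0.08 (SE), adjusted p = 2.23e-07). The forkhead targets Foxf1 (-0.99) and Foxl1 (-1.35) fell with it. The 2 risers, picked after their values were seen, were the co-receptors Boc (0.14) and Cdon (0.19). For Boc its adjusted p was 0.0549 to 0.189 when E14.5 replicate 1, E14.5 replicate 2, E14.5 replicate 3, E16.5 replicate 1, E16.5 replicate 2 or E16.5 replicate 3 was left out, and for Cdon its adjusted p was 0.0644 to 0.13 when E14.5 replicate 2, E16.5 replicate 2 or E16.5 replicate 3 was left out. With upper-quartile factors neither passed the test (adjusted p = 0.289 for Boc and 0.129 for Cdon).

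In the FGF list 7 of 20 tested rose (35%, against 35.3% of all genes) and 8 fell (40%, against 32.9%), with a median of -0.10. Of the feedback genes, Etv4 measured 27.2, 34.9 and 33.5 CPM at E14.5 and 10.1, 7.24 and 8.42 CPM at E16.5, Spry4 18.5, 20.2 and 25.9 CPM against 7.53, 6.73 and 10.2 CPM and Il17rd 42.2, 48.8 and 51.2 CPM against 16.8, 18.4 and 19.1 CPM, and Dusp6 fell with -0.88. These 4 genes were lower at E16.5, with no overlap between the groups, but other feedback genes, picked after their values were seen, were higher: Spry1 (0.54), Spry2 (0.43) and Spred2 (0.36). The receptors Fgfr2 (239.6, 234 and 242 CPM against 421, 422 and 449 CPM) and Fgfr3 (84, 71.1 and 75.5 CPM against 137, 143 and 137 CPM), which epithelium uses, were higher. Among members picked after their values were seen, Fgfr4 (0.70) was higher and Fgfr1 (-0.83) was lower. The ligands Fgf7 (-0.65), Fgf10 (-0.68) and Fgf18 (-0.66), picked in the same way, were lower too. Etv5 overlapped (-0.04), and Fgf8 itself stayed between 0.245 and 0.457 CPM and did not pass the test (adjusted p = 0.52).

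BMP pathway genes fell in 16 of 27 tested and rose in 5 (median -0.37). Besides Msx1, the ligand Bmp5 (20.2, 13.1 and 16.6 CPM against 4.97, 4.47 and 4.4 CPM), the receptor-regulated Smad9 (44.9, 37.6 and 42.1 CPM against 10.4, 11.2 and 11.5 CPM) and the extracellular modulator Bmper (-2.15) fell. Bmpr1b, a type I receptor, rose (4.47, 4.33 and 6.35 CPM against 14.4, 15.8 and 19 CPM), and Bmp7 (0.85), the antagonist Nog (0.72), Id1 (0.73) and Msx2 rose by less than 2-fold (these 4 were picked after their values were seen).

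Canonical Wnt genes divided, 12 of 24 tested higher and 11 lower (median 0.07). The factors Tcf7 (99.9, 88.9 and 94.4 CPM against 24.6, 26.2 and 23.7 CPM) and Lef1 (29.8, 37.2 and 43.6 CPM against 10.7, 7.22 and 12.7 CPM) and the target Sp5 (-3.15) fell, with Dkk1 and the secreted inhibitor Sfrp2 (-0.99), while the epithelial ligand Wnt10a rose (7.97, 9.53 and 10.3 CPM against 45.4, 41.9 and 43.2 CPM). The target Axin2 overlapped between the ages (57.7, 60.6 and 62.9 CPM against 57.2, 55.3 and 57.7 CPM, adjusted p = 0.188). Ctnnb1, which encodes beta-catenin, measured 209, 227 and 259 CPM at E14.5 and 1829, 1848 and 1823 CPM at E16.5 (log2 fold change 2.99 ± 0.09 (SE), adjusted p = 5.23e-09). The rise was 7.93-fold, and the mutant libraries of both ages had levels near those of the E16.5 controls, as given below.

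Of 15 Notch genes tested, 5 rose (33.3%, against 35.3% of all genes) and 7 fell (46.7%, against 32.9%). Jag2 and the glycosyltransferase Lfng (20.3, 23.1 and 21.5 CPM against 46.7, 48.6 and 45.1 CPM) rose, and the vascular receptor Notch4 (-1.16) and targets Heyl (-1.66) and Hey2 (-1.62) fell. Notch2 overlapped (-0.01).

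Metabolic genes of glycolysis and the hypoxia response moved up moderately. Of the 19 tested, 15 were higher and 1 lower (median 0.58). The HIF targets Egln3 (13.2, 12.9 and 14.2 CPM against 77.4, 72.8 and 79.3 CPM) and Ndrg1 (53, 52.3 and 55.5 CPM against 295, 285 and 307 CPM) and the glucose transporter Slc2a1 (103, 119 and 120.5 CPM against 341, 339 and 364 CPM) rose most, with Pfkp, a phosphofructokinase, at 1.52. Pkm, the pyruvate kinase, fell slightly (1237, 1232 and 1235 CPM against 1031, 958 and 996 CPM; picked after its values were seen), and Hk2 overlapped (0.07). Of 20 mitochondrial respiration genes, 10 rose (50%, against 35.3% of all genes) and 2 fell (median 0.23). Only 2 rose by at least 2-fold (10%, against 18.2% of all genes), led by the nuclear receptor Esrra (1.17).

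Glucocorticoid and circadian genes rose in 14 of 20 tested and fell in 3 (median 0.67). The metallothioneins Mt1 (8.92, 12.2 and 9.51 CPM against 68.7, 71 and 60.2 CPM) and Mt2 (3.06) and the factor Zbtb16 (2.11) rose, as did the receptor Nr3c1 (74.8, 72 and 79.3 CPM against 144, 167 and 178 CPM), its target Klf9 (1.31) and Clock (1.17). Fkbp5, a standard glucocorticoid target, overlapped (74.6, 65.1 and 71.7 CPM against 77.2, 70.3 and 79 CPM, adjusted p = 0.241). Per3 (-0.35), Nr1d1 (-0.31) and Tef (-0.20) fell (picked after their values were seen).

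Genes that respond within minutes to dissection or stress also rose, 14 of 18 tested higher and 2 lower (median 1.65). Fos measured 12.3, 52.5 and 34 CPM at E14.5 and 271, 325 and 264 CPM at E16.5 (log2 fold change 3.12 ± 0.42 (SE), adjusted p = 1.13e-04), Junb 11.6, 15.6 and 14.3 CPM against 105, 126 and 102 CPM and the heat shock gene Hspa1a 2.08, 2.34 and 2.61 CPM against 26.8, 24.4 and 31.3 CPM, whose reads its near copy Hspa1b can share. E14.5 replicate 1 was the lowest library for Fos. Egr2 and Egr3 (18.8, 26.7 and 26 CPM against 2.11, 1.29 and 2.78 CPM) fell, and Hspa8 overlapped (-0.17). The ribosomal RNA precursor Rn45s rose too (1561, 1028 and 1606 CPM against 3413, 2703 and 4846 CPM). Handling or library preparation that differed between ages cannot be told apart from age with these labels, and its part in the results above was not tested.

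**Figure D4:**
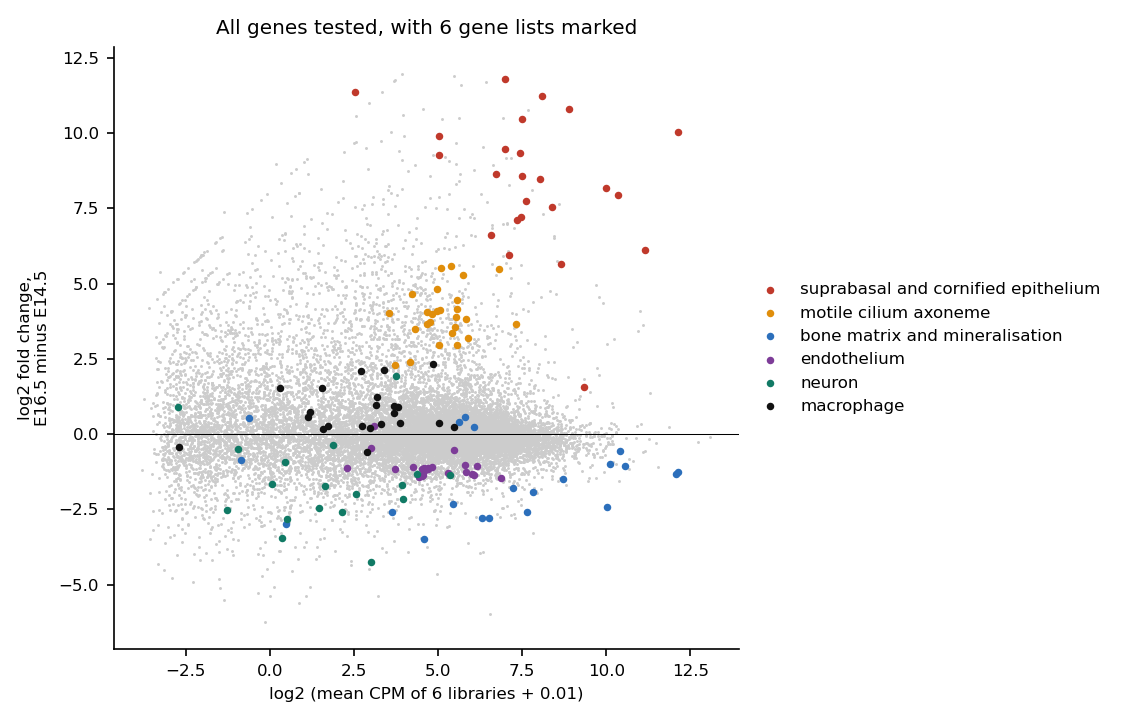
Log2 fold change from E14.5 to E16.5 (y axis) against log2 of mean CPM plus 0.01 (x axis) for the genes tested, in grey, with members of 6 lists in colour. Genes at 0 in all 3 libraries of an age are not drawn. The cornified genes stand highest, the ciliary genes below them, and the endothelial, neuronal and bone matrix genes mostly lie below 0.

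The same interval in the Fgf8-expressing mutants was used only to see which of these changes were shared. Of 3118 genes at least 2-fold higher with age in controls and also in the 12-library test, 2598 (83.3%) rose in mutants and 5 fell. Of 1486 genes at least 2-fold lower in controls, 970 (65.3%) fell in mutants and 38 rose. The age change itself differed between genotypes for 3921 of 17550 genes (22.3%), and by at least 2-fold for 1448 (8.25%), the 3921 including 1390 of the 3118 risers (44.6%) and 841 of the 1486 falls (56.6%). With E16.5 mutant replicates 1 and 3 left out, 2017 genes differed, with the spread of the 1 library left taken from the rest. Those 2 libraries held neuronal genes far above the other mutant libraries: Elavl3 measured 0.668, 1.06 and 0.877 CPM at E14.5 and 18.6, 0.133 and 11.4 CPM at E16.5.

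In CPM scaled over 12 libraries, Ctnnb1 measured 1873, 1792 and 1845 CPM at E14.5 and 1567, 1806 and 1692 CPM at E16.5 in mutants, against 212, 230.5 and 262 CPM and 1846, 1866 and 1856 CPM in the controls of the respective ages. The E14.5 control libraries thus stood apart from the other 9. The age change in controls minus that in mutants was 3.10 ± 0.11 (SE, adjusted p = 1.34e-08). Smad9 fell in controls and was higher at the later age in mutants (30.2, 33.1 and 35.1 CPM at E14.5 and 53.4, 83.6 and 80.4 CPM at E16.5; difference -3.06, adjusted p = 2.32e-06). Cytl1, a secreted protein of cartilage cells, reached at most 0.591 CPM in the controls and measured 0.545, 0.935 and 0.735 CPM at E14.5 and 20.4, 6.71 and 10.4 CPM at E16.5 in mutants. Krt5 rose in both genotypes, with log2 fold changes of 3.63 in controls and 3.09 in mutants (difference 0.53 ± 0.29, adjusted p = 0.226). Runx2 fell in both, with -2.14 in controls and -4.35 in mutants (difference 2.20 ± 0.23, adjusted p = 4.87e-05). Some changes of the controls were smaller or opposite in mutants, in genes picked after their values were seen. Kdr (-0.22), Pecam1 (-0.19), Gmnc (0.23) and Myb (0.11) did not pass the edgeR test in mutants, and Snai1 rose (0.42, adjusted p = 0.0362). The difference between genotypes had an adjusted p of at most 0.0021 for each of them. Cdh5 (-0.46, adjusted p = 0.00238) and Foxj1 (1.56, adjusted p = 0.00277) moved in mutants in the same direction as in controls.

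**Figure D5:**
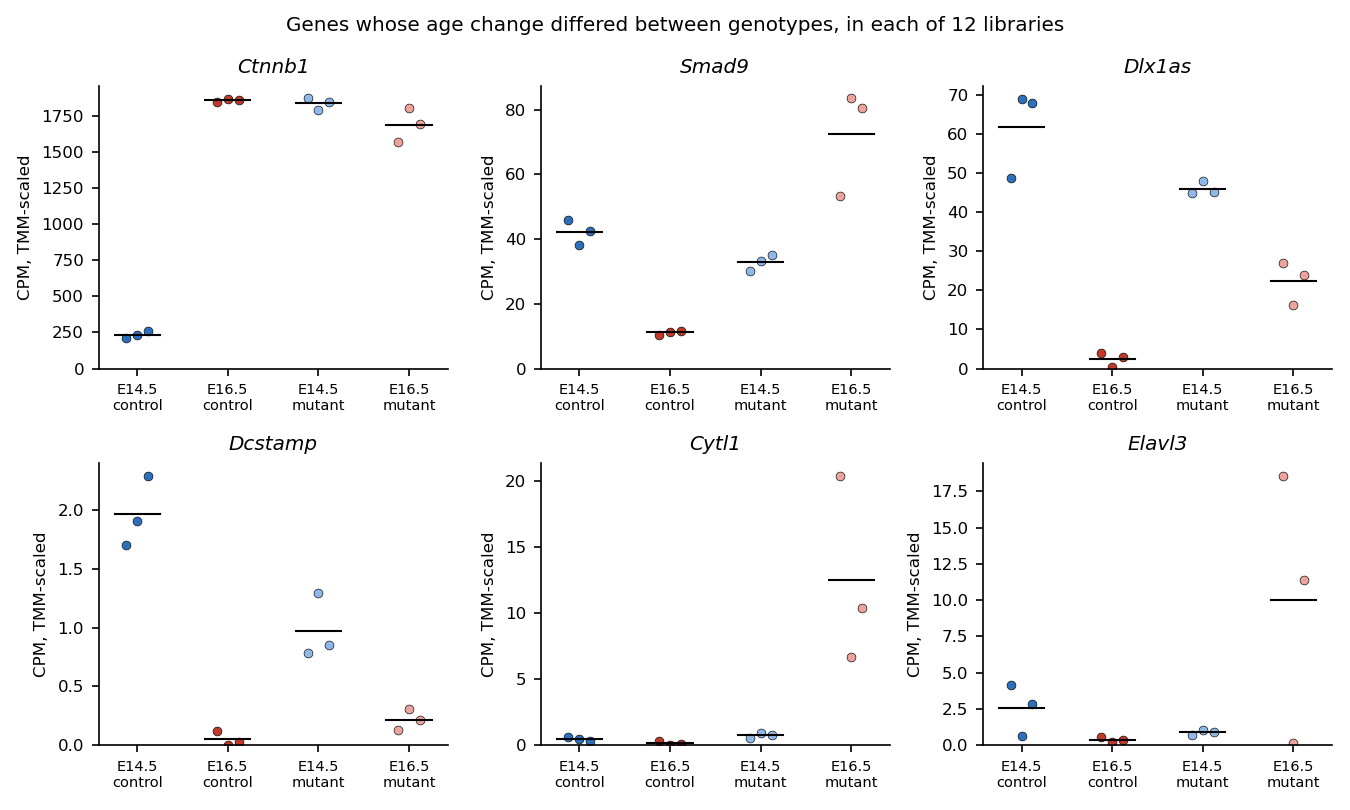
CPM, scaled over 12 libraries, of 6 genes whose age change differed between genotypes (y axis from 0), in 3 libraries of each group, with the mean as a line. Ctnnb1 is low only in the 3 E14.5 control libraries, and Elavl3 is high in E16.5 mutant replicates 1 and 3.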

How the data were processed

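The raw read counts per gene were deposited by the authors for each library, 24391 gene symbols each. Per the submitters' processing notes, HISAT2, featureCounts and DESeq2 were used with the mm9 genome, and their versions are not given in the sources used here. Whether counting used strand is not given either, so overlapping and antisense genes cannot be told apart. Groups came from the sample titles. The 6 control libraries were fitted with edgeR 4.0.16 (R 4.3.3) after filterByExpr and TMM scaling, with the quasi-likelihood test, Benjamini-Hochberg adjustment and a call at an adjusted p under 0.05. The 12 libraries were fitted with 4 group means to test the difference between genotypes. CPM values are TMM-scaled, and log2 fold changes with their standard errors come from the fit. A floor of 3 counts over a group stands in for 0. Without molecular identifiers, such a floor reflects counting error alone. The unused tables of the series hold 24 columns of per-sample values. Of the symbols, 27 had turned into dates and stayed in the fit unnamed.

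The 43 gene lists and the members named were chosen with earlier results of these data known. The text names the 15 largest rises and 15 largest falls (average log2 CPM 1 or more, ages not overlapping), the 15 largest in CPM each way, and per list up to 6 called members by size and up to 2 not called by level, plus defining markers. Exceptions are marked, and some genes under the rule are not reported here. DESeq2 1.42.0, limma-voom 3.58.1, other scalings and filters, a replicate block and leaving out each library were the alternatives.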

Additional observations from a re-analysis of the deposited data

Results flagged for a closer look

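The age change differed between control and mutant palates, by the interaction test in edgeR over 12 libraries, for 3921 of 17550 genes. Among the genes named here, those with more than 3 counts in each group whose age change differed by at least 8-fold are given as controls minus mutants on the log2 scale. Bglap2 (2 counts over the E14.5 mutants), Ckm (0 there) and Sprr1b (1 over the E14.5 controls) are left out for that reason. Ctnnb1 (3.10) changed more in controls.

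The others had a more negative change in controls: Smad9 (-3.06), Dcstamp (-3.17), the antisense transcript Dlx1as (-3.60), Cytl1 (-5.96), Rpl29 (-6.48), the granulocyte genes Mpo (-4.29) and Elane (-4.58), and the neuronal genes Nefm (-3.12), Elavl4 (-3.89), Stmn3 (-5.83) and Elavl3 (-6.35). Without E16.5 mutant replicates 1 and 3, a setting chosen after seeing the data, the difference was 2.98 for Ctnnb1 and -3.29 for Smad9 and both passed the test. Under the same setting the 4 neuronal genes no longer passed: Nefm 1.26 (adjusted p = 0.276), Elavl4 -0.88 (0.465), Stmn3 0.48 (0.845) and Elavl3 -0.15 (0.97), nor did Mpo -2.29 (0.35) and Elane -2.72 (0.529). Dlx1as overlaps Dlx1 on the other strand, and Rpl29 has many near copies, so the counts of both are uncertain; Rpl29 varied between 1.86 and 34 CPM within the E14.5 controls.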

How the results depend on the processing

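The count of genes changed was 11713, and 10889 to 11713 with 1 library left out, 11689 with DESeq2 size factors, 11987 with upper-quartile factors (46.5% of them higher at E16.5, against 51.8%), 11883 with the DESeq2 test and 11809 with limma-voom. For changes of at least 2-fold the count was 4609, and 4523 to 4779 with 1 library left out. At least 5 CPM in 3 libraries tested fewer genes and left 4592 higher and 4745 lower genes and 2761 of at least 2-fold, and called members of 5 in the osteocyte, 11 in the nasal secretory, 5 in the olfactory, 4 in the tooth, 4 in the myogenic, 4 in the sarcomere, 3 in the erythroid, 3 in the mast cell, 7 in the neuron and 0 in the melanocyte list. Leaving out 1 library gave 4 to 7 called members in the myogenic, 9 to 14 in the Schwann cell and 1 to 3 in the melanocyte list. With replicates 1 and 2 alone the mast cell list had 7. Same-numbered libraries of both ages correlated in their deviations at 0.0528, 0.0952 and 0.168 over all genes tested, so the numbers were not taken to pair them, although each library correlated best with its own number there and for the 13481 genes averaging more than 1 in log2 CPM the values were 0.155, 0.242 and 0.557. A replicate block called 12630 genes, 11 ribosomal protein genes and 6055 genes in the difference between genotypes. With the block, 7 named genes given above as not passing did pass: Tjp1 (adjusted p = 0.0065), Atf4 (0.013), Ctsk (0.0134), Hspa8 (0.0148), Rpl4 (0.0174), Pax9 (0.0234) and Prox1 (0.0404). With upper-quartile factors Ctsk (0.0344), Rpl4 (0.0219) and Axin2 (0.0287) passed, and with replicates 1 and 2 alone Rpl4 did (0.0474). Boc lost its call with DESeq2 size factors (0.0567) and with no filter (0.0731), and Cdon with replicates 1 and 2 alone (0.0847). That difference had 2017 genes without E16.5 mutant replicates 1 and 3. Of 4479 values of 302 named genes under these alternatives, 4427 kept their direction and their side of the threshold, 36 (8 genes) lost the call, 16 (11 genes) gained it and 0 reversed. The cause of these shifts was not tested. Low genes, such as those of muscle, melanocytes and olfactory neurons, rest on few counts.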

Other observations

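The largest falls that met the rule included genes outside the lists. The neuropeptide galanin (Gal) measured 16.7, 20.6 and 17.5 CPM at E14.5 and 0.308, 0.647 and 0.351 CPM at E16.5, the p53 target Rprm 11.3, 9.1 and 9.83 CPM against 0.662, 0.636 and 0.318 CPM and the synaptic organiser Cbln1 8.99, 11.2 and 10.1 CPM against 0.662, 0.257 and 0.571 CPM. Col22a1, a collagen of tissue junctions, measured 166, 124 and 143 CPM at E14.5 and 7.69, 10.3 and 10.1 CPM at E16.5, a fall of 15.4-fold (log2 fold change -3.95 ± 0.14 (SE), adjusted p = 1.68e-08). Aldh1a2, the enzyme that makes retinoic acid in mesenchyme, measured 207, 106 and 142 CPM at E14.5 and 12.8, 7.24 and 10.5 CPM at E16.5, and the thyroid hormone binding protein Crym 23.5, 20.7 and 17.6 CPM against 1.76, 1.16 and 1.2 CPM. All 3 E16.5 libraries lay below all 3 E14.5 libraries for each of these genes.

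Myoc (myocilin), a secreted glycoprotein, rose from 0.0601, 0.0383 and 0.116 CPM to 97.2, 108 and 92.9 CPM (log2 fold change 10.52 ± 0.18 (SE), adjusted p = 4.19e-10). Anxa1 (224, 272 and 229 CPM against 2213, 2326 and 1949 CPM), an annexin of differentiated epithelium and leukocytes, and Emp1 (337, 373 and 362 CPM against 1364, 1398 and 1431 CPM), an epithelial membrane protein, were among the 15 largest rises in CPM. Among the largest falls in CPM were the tubulin Tubb5 (2289.5, 2186 and 2345 CPM against 1035, 971 and 1033 CPM), the actin-binding Marcks (1172, 1048 and 1423 CPM against 381, 360.3 and 585 CPM), fibronectin (Fn1, -1.27), cytoplasmic actin (Actb, -0.90), the signalling subunit Gnas (-0.82), the growth factor binding protein Igfbp5 (-0.59) and the ubiquitin ligase Nedd4 (-0.55).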
